A study of Mus musculus with 2 samples.

Results

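The prostaglandin and leukotriene synthesis genes are 10 genes that turn arachidonic acid into prostaglandins and leukotrienes or remove the products: *Ptgs1*, *Ptgs2*, *Ptges*, *Ptges2*, *Ptges3*, *Ptgds*, *Hpgds*, *Hpgd*, *Lta4h* and *Ltc4s*. They were taken by gene name from the probes of a mouse expression array, on which 15 probes carried one of these names, among 30133 genes with a probe. Skin of newborn mice at postnatal day 0 (P0) was compared between *Pnpla1*+/+ (wild-type, WT) and *Pnpla1*-/- (mutant) animals, with RNA of 6 animals pooled for each genotype and hybridized to 1 single-colour (Cy3) Agilent array. The knockout allele was *Pnpla1*tm1a(KOMP)Wtsi, a knockout-first allele made in C57BL/6N embryonic stem cells (RENKA), from which flippase had removed the IRES-LacZ and Neo cassettes, and the *Pnpla1*+/+ animals were littermates. Removal of such cassettes by flippase usually leaves a conditional allele. Heterozygotes were intercrossed to give homozygous null animals, but the main text of the paper does not say how the allele itself became null. PNPLA1 is an enzyme of the outer epidermis needed for acylceramide, a lipid of the skin barrier, and the comparison asks how skin gene expression differs when it is missing. The allele was present in all cells and not in keratinocytes alone, and the deposited description calls the tissue both skin and epidermis. With 1 array per genotype there is no replicate, so no test was possible, no error between mice can be given, and each difference describes these pools.

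Arachidonic acid released from membranes is oxidized by cyclooxygenases, one made by many cells at rest and one induced by injury and cytokines, to prostaglandin H2, which terminal synthases turn into prostaglandins E2, D2, F2α, prostacyclin or thromboxane. In leukocytes, 5-lipoxygenase and its partner protein form leukotriene A4, from which leukotriene B4, an attractant of neutrophils, and the cysteinyl leukotrienes are made. In skin these lipids are known for their parts in inflammation, vasodilation, itch and keratinocyte growth.

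*Ptgs2*, which encodes the inducible cyclooxygenase, was 5.13-fold higher in *Pnpla1*-/- skin, a log2 difference of 2.36 that another background correction (normexp) lowered to 1.56. *Hpgds*, which encodes the hematopoietic prostaglandin D synthase, was 2.59-fold higher. None of the other 8 genes reached 2-fold by its brightest probe, although a dimmer probe of *Ptges*, the inducible prostaglandin E synthase, was 5.92-fold higher. *Ltc4s* and *Ptges* by its brightest probe were higher by less than 2-fold, *Ptgds* and *Hpgd* were lower by less than 2-fold, and *Ptgs1*, *Ptges2*, *Ptges3* and *Lta4h* lay between -0.08 and 0.24 on the log2 scale. Of the 10 synthesis genes 2 were thus higher by 2-fold or more and 0 lower by as much, beside 6.70% and 3.05% of all genes for which a difference could be computed. The median over the 10 genes was 0.17 on the log2 scale, beside 0.00 over all 22380 genes with a difference, and its sign changed with the scaling.

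The probes behind these values are shown first. The brighter *Ptges* probe is given by its first 30 bases and the dimmer one in full, because they disagreed, and the *Hpgds* probe in full, because it is the only one of the 15 that spans a long stretch of the genome. The *Ptgs2* probe is given by its first 30 bases.
*Ptgs2*: tttttgaaaagtttgaagttagaacttagg
*Ptges* brighter probe: atgataaaggactaaacctctgaacctgta
*Ptges* dimmer probe: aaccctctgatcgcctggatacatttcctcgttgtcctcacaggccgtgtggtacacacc
*Hpgds*: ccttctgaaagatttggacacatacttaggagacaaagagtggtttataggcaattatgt
They are written as the scanner files list them, from 5′ to 3′, with no part in capitals. The *Ptgs2* probe lay at chr1:151954744-151954803 of mm9. The brighter *Ptges* probe lay at chr2:30744995-30745054 and the dimmer one at chr2:30748214-30748273, with 3159 bases between them, and since the gene is read from the minus strand the brighter probe is the one nearer its 3′ end. The dimmer probe had 2 forward reading frames without a stop codon and the brighter probe had 0. The 60 bases of the *Hpgds* probe covered 3529 bases of the genome, at chr6:65070081-65073609, more than its own length, so the probe does not lie within 1 exon. No annotation of the mm9 build was used here, so the exon or untranslated region of the other probes is not given.

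Intensities are given as deposited, and a level is the intensity divided by the array's 75th percentile, which was 2108 for *Pnpla1*+/+ and 1734 for *Pnpla1*-/- skin. A difference is the log2 level in mutant skin minus that in *Pnpla1*+/+ skin, and a value in parentheses after a gene is its difference. Well above background is a call that the scanner software makes for each spot. Control RNA added to the samples (8 E1A spike-in probes) was higher by 0.43 on the mutant array after this scaling, so that centring on it lowers each difference by that much. Without the controls there were 43020 spots and 39429 probes per array, of which 71.7% of spots (WT) and 73.3% (mutant) were well above background and 0 were saturated. Repeated spots of a probe give the technical error, and over 305 probes with at least 8 spots the SD of a difference had a median of 0.04. This SD was 0.16 where the dimmer intensity was under 100, 0.05 from 100 to 1000 and 0.03 above that, and it holds no variation between mice.

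*Pnpla1* itself had an intensity of 579 in WT and 114 in mutant skin, a difference of -2.07, by a probe at chr17:29026908-29026967 that was well above background on both arrays. Where this probe lies relative to the altered part of the allele is not given in the sources used here. Skin identity was checked on 10 keratinocyte markers, all of which were well above background on both arrays, and their summed level was 465 in WT and 535 in mutant skin, with *Krt10* the brightest. In WT and mutant skin, fibroblast markers summed to 372 and 349 and skeletal muscle markers to 411 and 445. The pools thus held more than epidermis. *Krt14* (1.35) and *Dsg3* (1.82) were at least 2-fold higher and *Krt15* (-1.67) at least 2-fold lower in mutant skin, with *Krt14* under 2-fold with spike-in centring. The pools also differed in sex-linked genes, with differences of 1.12 for *Xist* and -2.19 for *Ddx3y* and *Eif2s3y* of the Y chromosome, and none of the 10 synthesis genes lies on a sex chromosome, while *Cysltr1* of the pathway genes given later lies on the X chromosome. The part of sex in the differences was not tested.

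All 15 probes of the synthesis genes were well above background on both arrays, and none of their 24 spots had an outlier mark. The plot of levels by probe sets both arrays side by side.

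**Figure D1:**
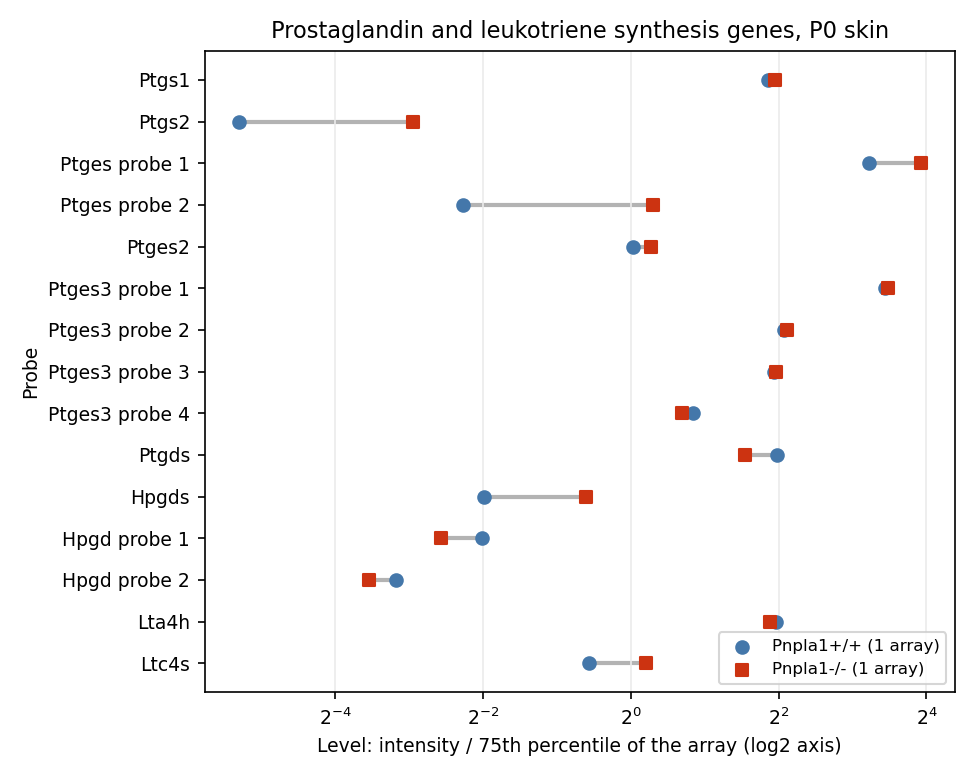
Level (intensity divided by the 75th percentile of the array, log2 axis) of each of the 15 probes on the *Pnpla1*+/+ array (circles) and the *Pnpla1*-/- array (squares), with 1 array per genotype. The widest gaps are those of *Ptgs2* (0.0254 to 0.130), the dimmer *Ptges* probe (0.208 to 1.23) and *Hpgds* (0.253 to 0.657).

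The cyclooxygenases catalyse the first committed step. *Ptgs1*, the constitutive form, had an intensity of 7636 in WT and 6736 in mutant skin, levels of 3.62 and 3.88. Its difference of 0.10 turned below 0 with no scaling (-0.18) and with centring on the spike-in RNA (-0.32), so no direction is given for it. *Ptgs2* was printed on 10 spots of each array. In *Pnpla1*+/+ skin their intensity ran from 44.8 through a median of 53.0 to 77.3, and in mutant skin from 209.9 through 225 to 244. The lowest of the *Pnpla1*-/- spots was above the highest of the *Pnpla1*+/+ spots, so the arrays did not overlap, but spots of 1 array share 1 RNA pool and are not replicates of the genotype. The level was 0.0254 in WT and 0.130 in mutant skin, a difference of 2.36. Over the paired spots the difference ran from 1.81 to 2.68 with an SD of 0.26. Of all genes with a difference, 1.33% were at least as much higher. *Ptgs2* was a dim probe, with a local background of 23.5 and 23.8 on the arrays, and another background correction (normexp) lowered the difference to 1.56. The difference of *Ptgs2* exceeded that of *Ptgs1* by 2.26, a ratio of folds of 4.79 that no division of an array by 1 factor can change.

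**Figure D2:**
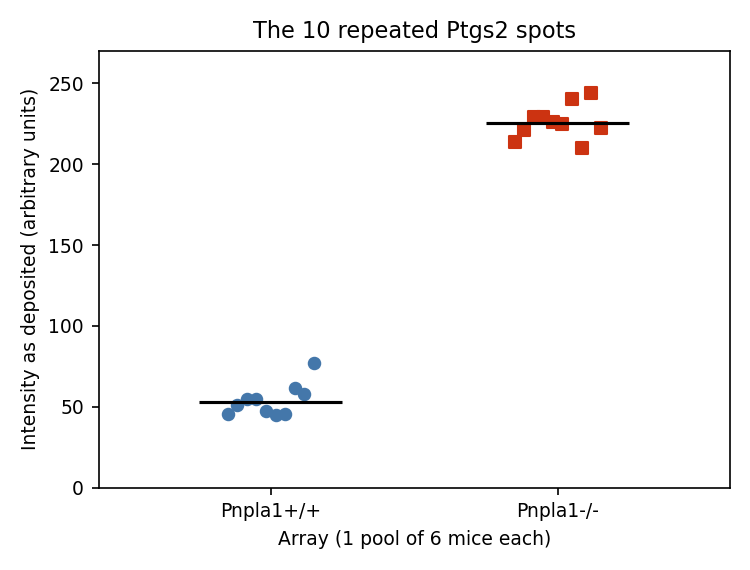
Intensity as deposited (arbitrary units) of the 10 repeated *Ptgs2* spots on each array, with 1 pool of 6 mice per array and a line at the median of the spots. The *Pnpla1*+/+ spots lie between 44.8 and 77.3 and the *Pnpla1*-/- spots between 209.9 and 244.

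The promoters of both cyclooxygenases are shown with those of *Ptges* and *Hpgds*, since these are the pair of contrasting cyclooxygenases and the genes with a probe at least 2-fold higher. They come from RefSeq on GRCm38.p6, which held all 10 genes, and run from 250 bases before to 50 after the annotated start, on the strand of the gene. Capitals mark matches on either strand to 6 motifs, the GC box (GGGCGG), the E-box (CACGTG), the short form of the cyclic AMP response element (TGACG), the palindrome bound by C/EBP factors (TTGCGCAA), the TATA box (TATAAA) and the AP-1 site (TGACTCA).
*Ptgs2*, chr1:150099781-150100080, plus strand: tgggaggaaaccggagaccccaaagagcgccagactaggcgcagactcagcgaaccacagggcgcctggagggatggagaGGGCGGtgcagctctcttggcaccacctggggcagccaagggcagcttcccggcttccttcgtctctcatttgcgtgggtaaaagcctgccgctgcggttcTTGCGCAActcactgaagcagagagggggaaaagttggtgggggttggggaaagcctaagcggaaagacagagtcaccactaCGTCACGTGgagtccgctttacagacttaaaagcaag
*Ptgs1*, chr2:36230176-36230475, plus strand: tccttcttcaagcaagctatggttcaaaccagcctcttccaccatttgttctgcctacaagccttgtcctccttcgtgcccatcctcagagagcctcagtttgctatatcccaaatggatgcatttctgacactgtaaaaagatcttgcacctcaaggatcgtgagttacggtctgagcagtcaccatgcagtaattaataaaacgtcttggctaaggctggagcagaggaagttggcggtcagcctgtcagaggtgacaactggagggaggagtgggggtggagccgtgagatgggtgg
*Ptges*, chr2:30903248-30903547, minus strand: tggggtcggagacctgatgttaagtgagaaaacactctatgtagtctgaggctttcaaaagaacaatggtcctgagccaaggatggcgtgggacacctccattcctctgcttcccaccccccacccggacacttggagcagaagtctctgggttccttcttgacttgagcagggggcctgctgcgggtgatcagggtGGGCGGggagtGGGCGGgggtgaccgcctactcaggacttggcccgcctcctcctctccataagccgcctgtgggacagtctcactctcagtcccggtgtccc
*Hpgds*, chr6:65144681-65144980, minus strand: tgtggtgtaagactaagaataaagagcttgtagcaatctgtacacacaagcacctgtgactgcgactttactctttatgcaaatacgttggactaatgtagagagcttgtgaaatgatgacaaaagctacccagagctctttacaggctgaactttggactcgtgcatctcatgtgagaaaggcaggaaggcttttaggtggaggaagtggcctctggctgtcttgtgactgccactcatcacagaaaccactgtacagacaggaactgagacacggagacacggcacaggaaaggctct
The *Ptgs2* window held a GC box from 170 bases before the start, the C/EBP palindrome from 69 bases before it, and, from bases 14 and 17 after it, the cyclic AMP element (on the other strand) and an E-box, which share 2 bases. The *Ptges* window held GC boxes from 53 and 42 bases before the start. None of the 6 motifs matched in the windows of *Ptgs1* and *Hpgds*, which says only that these letters are not there. Of 32817 promoters of the same length, 35.6% held the GC box, 7.15% the E-box, 20.8% the short cyclic AMP element, 0.183% the C/EBP palindrome, 13.6% the TATA box and 5.2% the AP-1 site. Among the 10 synthesis genes the same motifs were in 4, 2, 2, 1, 1 and 1. A match of letters is a description and not evidence of binding.

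Of the prostaglandin E synthases, *Ptges* is the membrane enzyme induced together with *Ptgs2* in inflamed tissue. Its brighter probe had an intensity of 19737 in WT and 26277 in mutant skin, levels of 9.36 and 15.2, a difference of 0.69 or 1.62-fold. Its dimmer probe had an intensity of 438 and 2133, levels of 0.208 and 1.23, a difference of 2.57. Both probes were higher in mutant skin, by very different amounts. The gap of 1.87 between them compares with a median range of 0.18 among the probes of 5112 genes with more than 1 probe, and 39 of these genes (0.763%) had a range as wide. With the mean over its probes *Ptges* was at 1.63, so its place above or below 2-fold depends on the probe. Where each gene was taken by its dimmest probe well above background on both arrays, 3 of the 10 synthesis genes were at least 2-fold higher (5.80% of all genes) and 0 were lower by that much (2.58%). The cause of the gap was not tested.

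*Ptges2*, a second membrane-associated synthase made constitutively, had an intensity of 2159 in WT and 2096 in mutant skin. Its difference was 0.24, which fell below 0 with no scaling (-0.04) and with spike-in centring (-0.19). *Ptges3*, a cytosolic synthase better known as the p23 partner of the chaperone HSP90, had 4 probes on chromosome 10, with differences from -0.14 to 0.04. Its brightest probe, at chr10:127513950-127514009, had an intensity of 22971 and 19361, levels of 10.9 and 11.2, and a difference of 0.04 that changed sign in 7 of 13 alternative settings. Neither constitutive synthase showed a difference whose direction held under each scaling. The difference of *Ptges* exceeded that of *Ptges3* by 0.66 with the brighter *Ptges* probe.

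The prostaglandin D synthases lay on opposite sides of 0. *Ptgds*, the secreted lipocalin-type synthase, had an intensity of 8304 in WT and 5068 in mutant skin, by a probe at chr2:25322232-25322291. Its levels of 3.94 and 2.92 gave a difference of -0.43, or 1.35-fold lower, and 14.3% of genes were at least as low. *Hpgds*, the cytosolic synthase of mast cells, antigen-presenting cells and megakaryocytes, had an intensity of 534 in WT and 1139 in mutant skin. Its levels of 0.253 and 0.657 gave a difference of 1.37, and 3.96% of genes were at least as much higher. It was printed on 1 spot, and for probes of its brightness the technical SD was 0.05. *Hpgds* stayed at least 2-fold higher in 12 of 13 alternative settings and was at 0.95 with spike-in centring, while *Ptgds* was below 0 in all 13, from -0.86 to -0.40. Both genes have 1 probe, so the settings for filters, probe summaries and outlier marks could not move them. The difference of *Hpgds* exceeded that of *Ptgds* by 1.81, a ratio of folds of 3.49.

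*Hpgd* encodes the dehydrogenase that begins the breakdown of prostaglandins E2 and F2α. Its brighter probe, at chr8:58799399-58799458, had an intensity of 522 in WT and 293 in mutant skin, levels of 0.248 and 0.169, and its second probe, which starts at 58798941, an intensity of 234 and 149. The differences were -0.55 (1.47-fold lower) and -0.37, so both probes pointed down by less than 2-fold, and 10.3% of genes were at least as low as the brighter probe. *Hpgd* was the lowest of the 10 genes as reported, though *Ptgds* was lower with normexp (-0.45 against -0.43) and with the dimmest probe (-0.43 against -0.37). *Hpgd* was below 0 in all 13 alternative settings, from -0.98 to -0.37. The differences of *Ptgs2* and *Ptges* (brighter probe), which act in synthesis, exceeded that of *Hpgd* by 2.91 and 1.25. With normexp *Ptgs2* was at 1.56 and *Hpgd* at -0.43, a smaller gap.

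*Lta4h* and *Ltc4s* act on leukotriene A4. *Lta4h*, the hydrolase that makes leukotriene B4, had an intensity of 8196 in WT and 6379 in mutant skin, levels of 3.89 and 3.68 and a difference of -0.08, by a probe at chr10:92947503-92947562. *Ltc4s*, the synthase that joins leukotriene A4 to glutathione to open the cysteinyl branch, had an intensity of 1428 and 2000.3, levels of 0.677 and 1.15 and a difference of 0.77, or 1.70-fold higher, by a probe at chr11:50049974-50050031. The gap between them was 0.85 in favour of *Ltc4s*. *Ltc4s* ran from 0.34 to 0.86 over the 13 alternatives and *Lta4h* from -0.51 to -0.05, so that neither changed sign.

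Ordered by the difference of the brightest probe, *Ptgs2* and *Hpgds* led, *Ltc4s* and *Ptges* followed with differences of 0.77 and 0.69, then came *Ptges2*, *Ptgs1*, *Ptges3* and *Lta4h* close to 0, and *Ptgds* and *Hpgd* ended the order. With the dimmest probe of each gene *Ptges* (2.57) came before *Ptgs2* (2.36). *Ptgds*, *Ptges*, *Ptges2* and *Ptgs1* have their probes within 10.8 Mb of chromosome 2, between 25322232 and 36107703, and their differences by the brightest probe spread from -0.43 to 0.69. Over the 13 alternatives *Ptgs2* was at least 2-fold higher in all, and none of the 10 genes was 2-fold lower in any. Some of the 13 repeat the main value of a gene with a single probe.

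**Figure D3:**
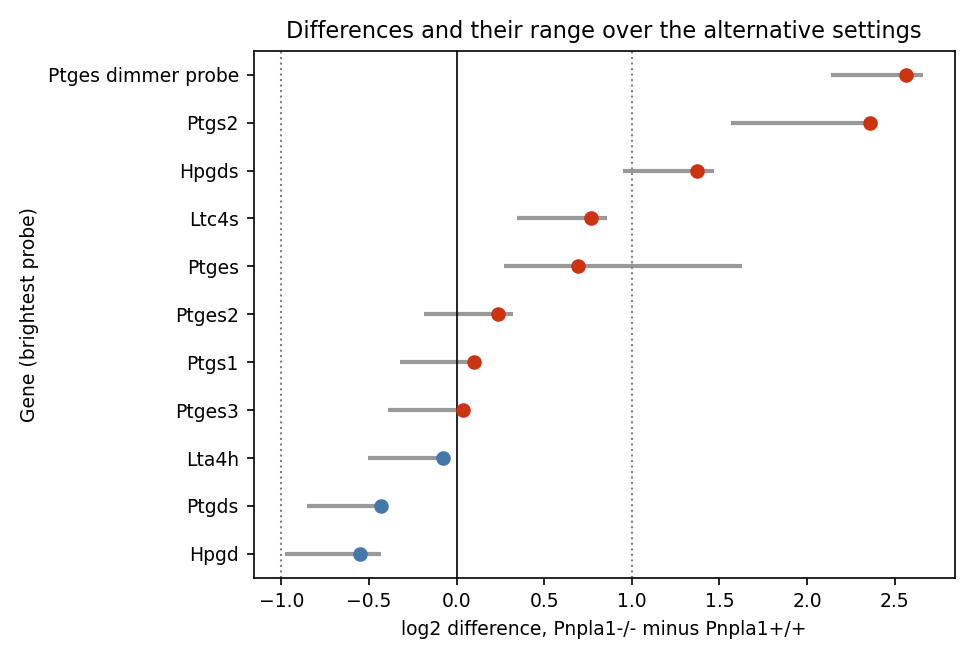
log2 difference (*Pnpla1*-/- minus *Pnpla1*+/+) of each gene by its brightest probe and of the dimmer *Ptges* probe, with bars spanning the alternative settings other than the choice of the dimmest probe, and dotted lines at 2-fold. *Ptgs2*, the dimmer *Ptges* probe and *Hpgds* lie to the right of the 2-fold line, and the bars of *Ptges2*, *Ptgs1* and *Ptges3* cross 0.

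**Figure D4:**
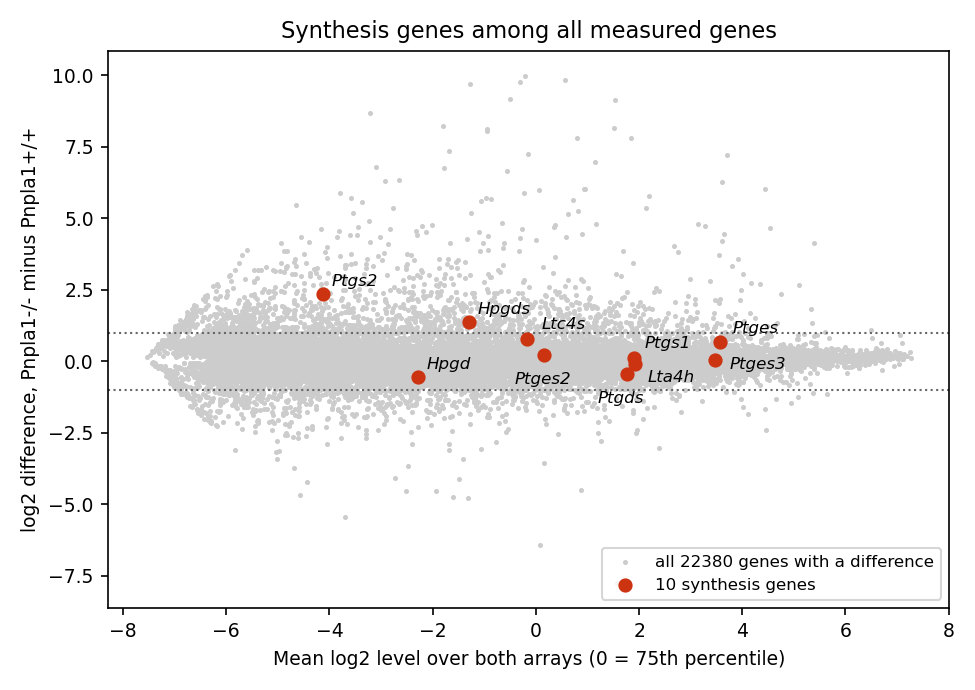
log2 difference (*Pnpla1*-/- minus *Pnpla1*+/+) against the mean log2 level of both arrays for all 22380 genes with a difference (grey) and the 10 synthesis genes (red), with dotted lines at 2-fold. *Ptgs2* (2.36) is a dim gene with a difference that 1.33% of genes reached, and 8 of the 10 genes lie between the lines.

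Other parts of the eicosanoid pathway were described by a chosen list of 34 further genes, which is not the whole pathway, and 32 of them had a difference. Of these, 8 (25.0%) were higher by 2-fold or more and 0 lower by as much, with a median of 0.03, beside 6.70% and 3.05% of all genes. The count higher was 3 with spike-in centring (3.74% of all genes), 4 with no scaling (4.47%) and 5 with normexp (4.34%), and spike-in centring put 2 genes at least 2-fold lower. Upstream of *Lta4h* and *Ltc4s*, both genes of leukotriene A4 synthesis were among the 8, 2 of a list of 3 with a median of 1.27. *Alox5*, which encodes 5-lipoxygenase, had an intensity of 484 in WT and 959.9 in mutant skin, a difference of 1.27, which was at least 2-fold in 11 of 13 alternatives and 0.85 with spike-in centring. *Alox5ap*, which encodes its activating protein, had an intensity of 2345 and 7469, a difference of 1.95. *Pla2g4a*, the cytosolic phospholipase that frees arachidonic acid, had an intensity of 2315 and 2356, a difference of 0.31 that turned below 0 with spike-in centring (-0.12).

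Of 7 genes that process leukotrienes, 2 were at least 2-fold higher (1 in 5 of 13 alternatives) and the median was -0.13. *Dpep2*, a dipeptidase that turns leukotriene D4 into E4, had an intensity of 65.7 in WT and 574 in mutant skin, a difference of 3.41 that normexp lowered to 2.48, and its second probe, well above background in mutant skin only, was at least 5.68-fold higher. *Ggt5*, a transpeptidase that turns leukotriene C4 into D4, had an intensity of 121 and 231, a difference of 1.22, but its second probe gave 0.20, and it passed 2-fold in 8 of 13 alternatives. *Mgst2*, a glutathione transferase with leukotriene C4 synthase activity and the brightest of this list, was at -0.31.

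All 4 leukotriene receptor genes were above 0 under each alternative, 2 of them at least 2-fold higher (1 with spike-in centring), with a median of 1.16. *Ltb4r1*, the high-affinity receptor for leukotriene B4, had an intensity of 1258 in WT and 6368 in mutant skin, a difference of 2.62 that ran down to 2.20 over the alternatives. *Cysltr1*, a receptor for cysteinyl leukotrienes, had an intensity of 258 and 546, a difference of 1.36, or 0.94 with spike-in centring, and its second probe gave 1.52. *Ltb4r2* and *Cysltr2* were at 0.95 and 0.86, under 2-fold.

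On the prostanoid side, none of 7 other synthases was 2-fold changed, with a median of -0.08, and *Prxl2b*, a prostaglandin F synthase and the brightest of them, was at -0.47. *Akr1c18*, another enzyme with prostaglandin F synthase activity, had an intensity of 4132 in WT and 1754 in mutant skin, a difference of -0.95 that passed 2-fold in 3 of 13 alternatives. None of 4 transport and breakdown genes was 2-fold changed, with a median of 0.28 that turned to -0.14 with spike-in centring, and *Ptgr1*, a prostaglandin reductase and the brightest, was at -0.42.

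Of 9 prostanoid receptor genes, 2 were at least 2-fold higher, and the median of the 7 with a difference was -0.16. The count higher was 0 with no scaling, spike-in centring or normexp, and 1 with quantile normalization or cyclic loess. *Ptger2*, a prostaglandin E2 receptor, had an intensity of 34.7 in WT and 61.0 in mutant skin, a difference of 1.1. *Ptgir*, the prostacyclin receptor, had an intensity of 193 and 346, a difference of 1.13. Both are dim probes and fell to 0.58 with normexp (*Ptger2*) or 0.70 with spike-in centring (*Ptgir*), under 2-fold. *Ptgfr*, the prostaglandin F receptor and the brightest of the list, had an intensity of 1391 and 748, a difference of -0.61. *Ptgdr* and *Ptgdr2*, the receptors for prostaglandin D2, the product of *Hpgds* and *Ptgds*, were not well above background on either array.

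**Figure D5:**
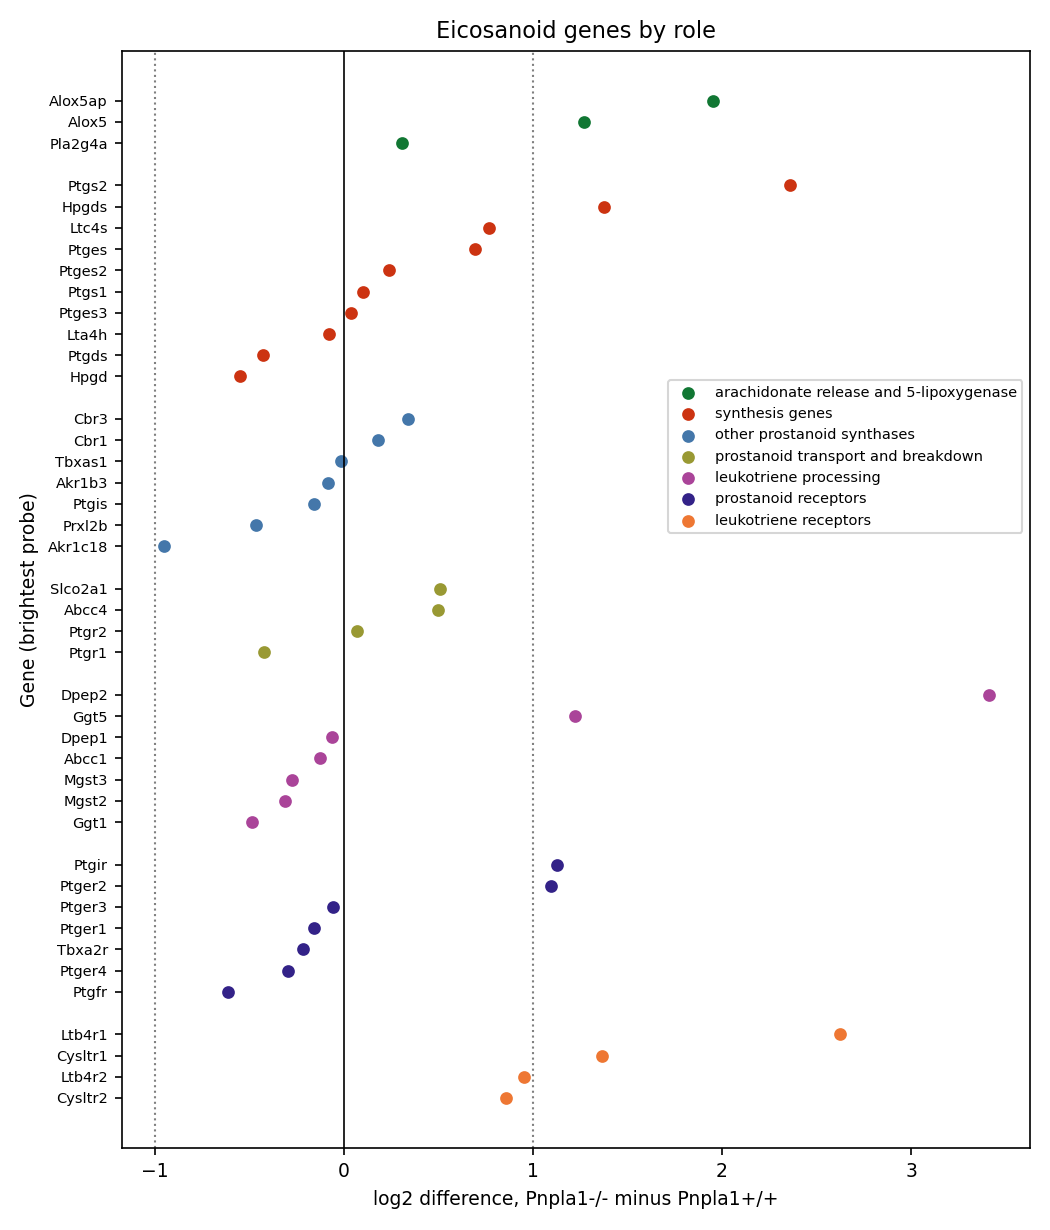
log2 difference (*Pnpla1*-/- minus *Pnpla1*+/+, brightest probe) of the 10 synthesis genes and the 32 other pathway genes with a difference, grouped by role, with dotted lines at 2-fold. *Dpep2* (3.41, or 2.48 with normexp), *Ltb4r1* (2.62), *Ptgs2* (2.36, or 1.56 with normexp) and *Alox5ap* (1.95) lie farthest to the right, and none lies beyond the 2-fold line on the left.

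Several of these genes are also known from leukocytes, and marker lists of cell types that skin can hold were described beside them. In pooled skin, fewer cells of a type and less RNA per cell cannot be told apart. Of 10 macrophage markers, 4 were at least 2-fold higher (2 with normexp, 1 with no scaling and 0 with spike-in centring), all 10 were above 0 in each setting, the median was 0.90, and the summed level was 17.4 in WT and 30.3 in mutant skin, with *Csf1r* (0.67) the brightest, *Fcgr1* (1.42) the highest and *C1qa* (0.58) the lowest. Of 10 markers of Langerhans and dendritic cells, 8 had a difference and 6 were at least 2-fold higher, with a median of 2.42, and the summed level was 3.07 and 16.7. *H2-Ab1* (2.43) was the brightest of these, *Itgax* (2.82) the highest and *Zbtb46* (0.62) the lowest, with *Flt3* (0.75) also under 2-fold. Most of the summed level came from *H2-Ab1*, at 1.47 in WT and 7.91 in mutant skin. *H2-Eb1* gave 0.826 and 4.86, and *Cd74* 0.554 and 3.05. Which cells of the pools carry these genes was not tested. The Langerhans cell marker *Cd207* and the dendritic cell marker *Xcr1* were not well above background on either array.

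Neutrophil markers were at least 2-fold higher for 6 of 10 genes, with a median of 3.34, or 2.51 with normexp. The markers under 2-fold lay between 0.04 and 0.42, and spike-in centring put 4 of the 10 below 0. The summed level of the 10 markers was 45.0 in WT and 50.1 in mutant skin. That sum is carried by *Csf3r* (0.04), by far the brightest, while *Cxcr2*, well above background in mutant skin only, had a bound of 5.90. Of 10 mast cell markers, 8 were below 0, with a median of -0.49 that was below 0 in each setting, and a summed level of 70.6 in WT and 54.8 in mutant skin. *Cpa3*, their brightest, was at -0.52, *Tpsab1* at -2.67 and *Fcer1a*, under 2-fold with spike-in centring, at 1.41. The count at least 2-fold lower was 1, against 3 with no scaling or spike-in centring and 2 with quantile normalization or cyclic loess. Of 10 platelet and megakaryocyte markers 8 had a difference, with 5 of 8 above 0 and a median of 0.50 that was above 0 in each setting, while their summed level was 19.9 and 18.2. Most of that sum came from *Pf4* (-0.13), the brightest, with levels of 19.2 in WT and 17.6 in mutant skin. Among the markers were 1 at least 2-fold higher (*Gp9*, 1.53, under 2-fold with normexp) and 1 lower (*Ppbp*, -1.43), and *Gp5* and *Gp6* were not well above background on either array. T cell markers had a summed level of 12.6 in WT and 9.33 in mutant skin, and a median of -0.34. Most of that sum came from *Thy1* (-0.46), the brightest, with levels of 10.9 and 7.93. *Il2rb*, which 6 of 13 alternatives put under 2-fold, was at 1.04 and *Cd5* at -1.36. The part of these cell types in the differences of the synthesis genes was not tested.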

How the data were processed

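Skin RNA of *Pnpla1*+/+ and *Pnpla1*-/- mice at P0 was measured on 1 array each, with each array assigned to its genotype by its sample labels. The authors labelled the RNA with Cy3, scanned the arrays and deposited, from Feature Extraction 11.5.1.1, a linear intensity per spot that was background-subtracted and not scaled between arrays. The authors also deposited a ratio whose divisor was constant over the 43020 spots of an array, 2109 (WT) and 1734 (mutant). Each intensity was scaled to the 75th percentile of its own array and taken to log2 (Python 3.11.15, pandas 2.3.3, numpy 2.4.6). Spots with an outlier mark on either array (138 and 82 spots) were left out, repeated spots were averaged, and a gene was represented by its brightest probe. A probe well above background on 1 array only has a bound, computed against its own dim signal or the lowest signal called well above background there, whichever was higher. Of 30133 genes, 20690 were well above background on both arrays, 1712 on 1 and 7731 on neither. Probe names were updated through RefSeq (GRCm38.p6), where 31456 of 39429 probes matched (27508 by accession, 3544 by symbol, 404 by an older symbol) and 7973 kept their name, while probe coordinates are those of the files (mm9).

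The 10 genes, the lists of pathway genes and cell markers and the motifs were chosen with earlier results of these data, or the sequences, known, and support nothing by themselves. Named were all 10 genes with their probes, the pathway genes at least 2-fold changed, the brightest gene of each list, and the brightest and the extreme genes of the marker lists. Markers not well above background on either array, the sex-linked genes, *Krt14*, *Flt3*, *H2-Eb1*, *Cd74*, *Pla2g4a*, *Akr1c18*, *Ltb4r2*, *Cysltr2*, *Ptgdr* and *Ptgdr2* were named after their values were seen. Precision is limited by the number of arrays. The alternatives were other scalings, centring on 8 E1A spike-in probes, and, with limma 3.58.1 (R 4.3.3), normexp with an offset of 50, quantile normalization and cyclic loess, the deposited ratios, other filters and probe summaries, and thresholds of 1.5-fold and 3-fold. The dimmest probe of a gene was added after the data were seen. The computation was tested on simulated data.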

Additional observations from a re-analysis of the deposited data

How the results depend on the processing

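Of the 10 synthesis genes, the count at least 2-fold higher was 2 as reported. It was 1 with spike-in centring (3.74% of all genes) and at a 3-fold threshold (3.06%), 4 at a 1.5-fold threshold (13.8%), and 3 with the mean over probes (6.70%) or the dimmest probe (5.80%). The count at least 2-fold lower was 0 under each alternative. The median of the 10 genes, 0.17, was -0.26 with spike-in centring, -0.11 with no scaling, 0.10 with scaling by the median and 0.23 with cyclic loess. Of the other pathway genes, 8 were higher as reported, against 3 with spike-in centring, 4 with no scaling, 5 with normexp and 3 at 3-fold, and 0 were lower, against 2 with spike-in centring, 1 with no scaling, 1 with scaling by the median and 2 at 1.5-fold. The scaling moved all genes together. The median over all genes was -0.28 with no scaling, -0.43 with spike-in centring and 0.10 with no filter on dim probes. Of all genes past 2-fold, 1499 higher and 682 lower, 68.7% were higher, against 41.2% with no scaling (998 and 1424) and 27.9% with spike-in centring (829 and 2147). Normexp gave 960 higher and 321 lower, no filter on dim probes 3041 higher, and thresholds of 1.5-fold and 3-fold 3093 and 684 higher and 2092 and 228 lower. Dim probes such as *Ptgs2*, *Ptger2* and *Dpep2* depend on the background correction, and normexp gave 1.56, 0.58 and 2.48. No paired analysis was possible because each genotype has 1 array, so that no array could be left out and no slide term fitted.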

Other observations

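Marker lists of other cell types of skin gave the following values. All 10 hair follicle markers were below 0 in each setting and 5 were at least 2-fold lower in *Pnpla1*-/- skin (3 with cyclic loess or normexp, 7 with no scaling and 8 with spike-in centring), with a median of -0.95 and a summed level of 94.0 in *Pnpla1*+/+ and 52.2 in *Pnpla1*-/- skin, *Krt71* (-0.82), a keratin of the inner root sheath, being the brightest, *Krt28* (-1.23) the lowest and *Dlx3* (-0.46) the highest. None of 10 fibroblast markers was 2-fold changed, with a median of -0.16, against 1 at least 2-fold lower with no scaling (median -0.44) and with spike-in centring (median -0.58), a summed level of 372 and 349, *Col1a2* (-0.17) the brightest, *Dpt* (-0.91) the lowest and *Pdgfra* (0.32) the highest. None of 9 measured adipocyte markers was 2-fold changed, with a summed level of 119.6 and 140.0, *Fabp4* (0.10) the brightest, *Cd36* (-0.21) the lowest, *Retn* (0.87) the highest and *Lep* below the well-above-background call on both, and their median of 0.06 was of the other sign in 5 of 13 alternatives. Of 10 endothelial markers 1 was at least 2-fold higher (*Vwf*, 1.35), with a median of 0.33, against 0 higher and a median of -0.09 with spike-in centring, a summed level of 23.4 and 30.4, *Egfl7* (0.30) the brightest and *Cldn5* (-0.10) the lowest. None of 10 melanocyte markers was 2-fold changed, with a median of -0.34, a summed level of 32.1 and 25.4, *Dct* (-0.38) the brightest, *Oca2* (-0.56) the lowest and *Tyrp1* (0.12) the highest. None of 10 skeletal muscle markers was 2-fold changed, with a median of 0.06, of the other sign in 6 of 13 alternatives, a summed level of 411 and 445, *Tnnc2* (0.08) the brightest, *Mylpf* (-0.22) the lowest and *Myh3* (0.57) the highest.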
